A study of Mus musculus with 3 samples.

Results

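The Ifi200 cluster is a row of related interferon-inducible genes on mouse chromosome 1. Most of its proteins pair an N-terminal pyrin domain, which binds other pyrin proteins, with C-terminal HIN domains, which bind DNA. They belong to the same family as AIM2, the cytosolic DNA sensor that starts inflammasome assembly, and human IFI16. *Ifi202b* stands apart because its protein has HIN domains but no pyrin domain, and it counteracts AIM2. The cluster is known to differ between inbred mouse strains, both in the genes it holds and in how strongly *Ifi202b* is expressed. Described here are 9 of its genes, *Ifi202b*, *Ifi203*, *Ifi204*, *Ifi205*, *Ifi207*, *Ifi209*, *Ifi211*, *Ifi213* and *Mndal*, of 31053 genes in the count tables. They were selected on their transcript counts in *Angpt1*ΔNC and control cells, which had been seen to differ, for some neighbours in opposite directions. The difference between genotypes is therefore described and not tested, and the comparison of interest is whether it was alike in every cell type.

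The cells came from the iridocorneal angle and limbus of 6-week-old mice of mixed strain, and were profiled by 10x Genomics single cell RNA sequencing, which reads transcript 3′ ends. The 2 control libraries were *Angpt1* flox/flox and the 1 knockout library was *Angpt1* flox/flox;Wnt1Cre+, called *Angpt1*ΔNC, so that all mice carried floxed *Angpt1* alleles and the knockouts alone carried Cre. *Wnt1*-Cre acts in the neural crest, which gives rise to trabecular meshwork, corneal stroma, ocular pericytes and melanocytes, but not to vessel endothelium, surface epithelium or blood cells. Each library pooled 2 to 3 mice bred onto outbred albino ICR stock. With 1 knockout library, a difference between genotypes cannot be told apart from a difference between pools of mice, including the alleles of this locus that they carried, and no permutation of the 3 libraries can give a p below 0.333.

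The authors kept 9076, 10160 and 6772 cells of control 1, control 2 and *Angpt1*ΔNC, with medians of 6330, 6394 and 7444 unique molecular identifiers (UMIs, each counting a captured transcript) per cell. Levels are given in CPM, the UMIs of a gene per 1000000 UMIs of the cells named, and their 95% Poisson intervals cover counting error only. *Angpt1* stood at 37.8 and 39.3 CPM in the controls and at 0.391 CPM in *Angpt1*ΔNC. The authors' 35 cell labels were joined into 13 classes. Of 10 marker lists, 9 were highest in their own class in every library, and the stromal list was highest in cluster 13 and next in stroma TM1 to TM11. From 13 to 25 barcodes of kept cells were shared by each pair of libraries. By *Xist* and Y-linked transcripts, 57.0% of *Angpt1*ΔNC cells were typed female and 29.4% male. The methods describe the pools as mixed-sex, but the controls held 0 and 1 female-typed cells, so cell sex moved with genotype.

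In mm10 (GENCODE M21) the 9 genes lie in a stretch of 681 kb with *Aim2*, *Ifi206*, *Ifi208* and *Ifi214*. Along the chromosome they run *Ifi213*, *Ifi209*, *Ifi207*, *Ifi204*, *Mndal*, *Ifi211*, *Ifi203*, *Ifi202b* and *Ifi205*, and all except *Ifi209* are on the minus strand. *Ifi207* spans chr1:173723427-173741747, its neighbour *Ifi204* chr1:173747293-173766943, *Ifi203* chr1:173920407-173942672, *Ifi202b* chr1:173962568-173982744 and *Ifi205* chr1:174011998-174031810. The genes are near copies of each other in places, which bears on how reads were assigned. Of the stretches of 90 bases in the last 500 bases of their coding transcripts, 59.4% of those of *Ifi205* and of *Ifi211* also occurred in another gene of the cluster, as did 58.6% for *Ifi209*, 7.54% for *Ifi213* and 4.25% for *Mndal*. For *Ifi202b*, *Ifi203*, *Ifi204* and *Ifi207* none did. Within this annotation, counts of these 4 genes are therefore the least open to exchange of reads, and those of *Ifi205*, *Ifi209* and *Ifi211* the most. Alleles or gene copies of these mice that the annotation lacks were not examined. The GENCODE model of *Mndal* also runs over *Ifi211* and into *Ifi203* on the same strand, with 37 bases of exon shared with *Ifi203*.

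The bases before the transcription starts sorted the genes into groups, shown here because *Ifi207* and *Ifi211*, or *Mndal* and *Ifi203*, have like promoters and unlike values in some classes below. Over 250 bases from RefSeq (GRCm38.p6), in a table matched for 8 of the 9 genes (all but *Ifi204*), *Ifi211* was 92.2% identical to *Ifi205* and 87.4% to *Ifi207*, and *Mndal* was 93.6% identical to *Ifi203*. *Ifi213* was 99.1% identical to *Ifi208* and 98.6% to *Ifi206*, and *Ifi209* was 94.8% identical to *Ifi214*. The closest match of *Ifi202b* was 60.6%, with *Ifi213*. These comparisons used all 250 bases, annotated exon included. Exon made up 211 and 118 of the bases before the 2 *Mndal* starts, so its likeness rests partly on exon. The sequences are given 5′ to 3′ on the minus strand, each as the longest stretch without bases in an annotated exon. For the first start of *Ifi203* this left 163 of 250 bases, although only 17 fell in an exon. Capitals mark GAAA-NN-GAAA, the core of the interferon-stimulated response element, or in *Ifi202b* TTC-NNN-GAA, the interferon-gamma activated site.
Ifi207 (chr1:173741810-173742059): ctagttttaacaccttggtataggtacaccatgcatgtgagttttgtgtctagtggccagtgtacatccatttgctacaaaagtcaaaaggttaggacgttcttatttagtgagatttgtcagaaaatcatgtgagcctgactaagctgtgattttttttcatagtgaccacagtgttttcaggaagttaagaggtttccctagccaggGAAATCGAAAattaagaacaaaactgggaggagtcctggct
Ifi211 (chr1:173913047-173913296): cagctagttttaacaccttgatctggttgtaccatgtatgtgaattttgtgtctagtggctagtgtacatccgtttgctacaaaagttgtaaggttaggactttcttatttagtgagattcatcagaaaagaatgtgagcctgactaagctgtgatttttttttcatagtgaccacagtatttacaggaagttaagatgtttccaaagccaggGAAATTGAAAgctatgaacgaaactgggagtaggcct
Ifi205 (chr1:174031811-174032005): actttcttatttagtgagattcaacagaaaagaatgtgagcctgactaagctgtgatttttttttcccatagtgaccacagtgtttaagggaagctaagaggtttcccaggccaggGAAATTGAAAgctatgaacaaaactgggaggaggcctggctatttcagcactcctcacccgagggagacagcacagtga
Ifi203 (chr1:173942493-173942655): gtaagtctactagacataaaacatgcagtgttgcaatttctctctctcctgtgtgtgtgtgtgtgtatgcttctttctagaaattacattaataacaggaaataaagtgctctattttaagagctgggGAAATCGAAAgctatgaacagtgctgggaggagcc
Ifi202b (chr1:173982845-173983094): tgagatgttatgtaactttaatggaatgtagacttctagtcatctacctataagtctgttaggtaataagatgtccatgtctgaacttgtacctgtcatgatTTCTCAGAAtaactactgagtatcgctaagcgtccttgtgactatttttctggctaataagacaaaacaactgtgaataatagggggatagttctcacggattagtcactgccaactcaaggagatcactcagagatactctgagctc
The letters GAAA-NN-GAAA, searched on both strands, stood in the 250 bases of 6 of the 8 matched genes (*Ifi203*, *Ifi205*, *Ifi207*, *Ifi211*, *Ifi213* and *Mndal*) against 2.98% of 32851 promoters, and TTC-NNN-GAA stood in *Ifi202b* alone of the 8 against 7.02%. The search included exon bases. The exon-free stretches before the *Mndal* starts held no match, nor did the stretch before the second start of *Ifi203*.

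Across all kept cells 5 of the 9 genes were within 2-fold of the controls and 4 were above both. The genes were selected on this contrast, so nothing is read from that count. *Ifi202b* stood at 551 and 721 CPM in the controls and 968 in *Angpt1*ΔNC, and *Ifi203* at 117, 116 and 157. *Ifi207* stood at 44.3, 39.1 and 29.2 CPM. Those above were *Ifi205* (5.61, 5.05 and 32.1 CPM), *Ifi209* (1.44, 1.02 and 4.63 CPM), *Ifi211* (14.1, 14.7 and 32.5 CPM) and *Ifi213* (0, 0.0249 and 1.20 CPM). The totals of *Ifi202b*, *Ifi203*, *Ifi204*, *Ifi207* and *Mndal* averaged classes whose differences had opposite signs, so each class was described by itself. A gene was placed above or below the controls in a class where the *Angpt1*ΔNC level was at least 2-fold outside both control levels and the 3 libraries held at least 20 UMIs of it. Of 117 pairs of gene and class, 64 had that many UMIs, and of these 24 were above, 7 below and 33 within. In the classes with a pair outside, from 5.44% (cluster 18) to 16.1% (mural cells) of all genes were outside both controls. *Ifi202b* and *Ifi207* alone were below in any class.

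**Figure D1:**
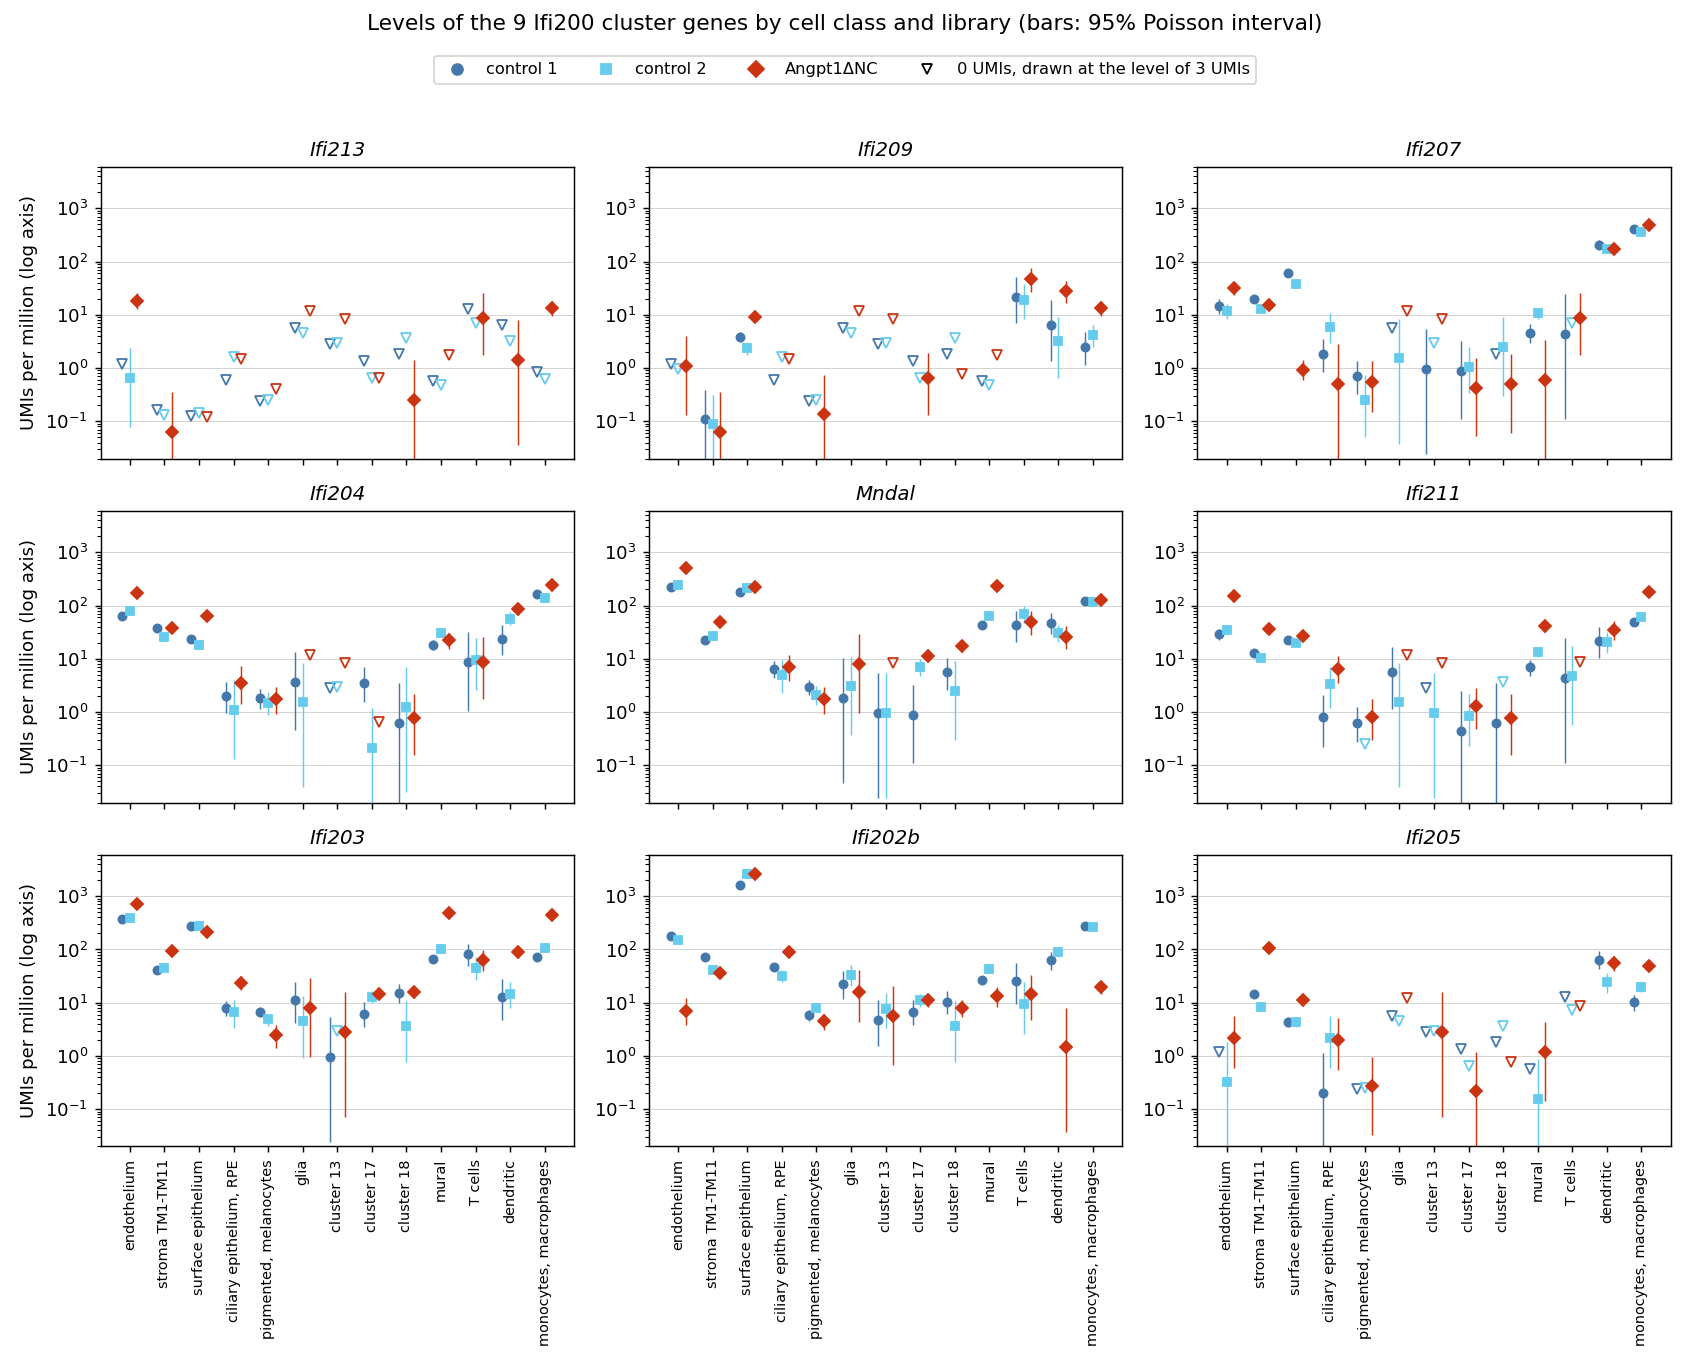
Level of each gene (UMIs per 1000000, log axis) in 13 cell classes, with a point for each library and 95% Poisson bars. *Ifi202b* of *Angpt1*ΔNC sits far below both controls in endothelium, dendritic cells and macrophages but between them in surface epithelium, where *Ifi207* of *Angpt1*ΔNC sits far below both controls.

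*Ifi202b* is the gene with the clearest split between cell classes. In endothelium it stood at 177 CPM in control 1 and 153 CPM in control 2, and at 7.09 CPM in *Angpt1*ΔNC, where 13 UMIs were counted (95% interval 3.77 to 12.1 CPM). The knockout level was 23.3-fold below the control mean. In monocytes and macrophages the levels were 270, 261 and 19.4 CPM, a 13.7-fold difference. Dendritic cells (cluster 23) held 62.4 and 91.5 CPM in the controls and 1.45 CPM in *Angpt1*ΔNC, from 1 UMI, so that the ratio of pooled controls to knockout was 56.7 with a counting interval of 9.97 to 2257. In mural cells the levels were 27.0, 42.2 and 13.1 CPM, and this class left the 2-fold bound when levels were scaled by TMM factors, which raised the log2 difference of every mural gene by 0.20.

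Surface epithelium (clusters 2 to 5) was the main source of *Ifi202b* and did not share the low knockout level. Its levels were 1656 CPM and 2613 CPM in the controls and 2566 CPM in *Angpt1*ΔNC, which lay between them. In each of the 4 epithelial labels the knockout was within the bounds. Classes low in *Ifi202b* in every library were pigmented cells and melanocytes, cluster 17 and cluster 18, where *Angpt1*ΔNC held 4.45, 11.2 and 7.87 CPM and no control was over 11.3 CPM. The 7.09 CPM left in knockout endothelium lay within that range, and the part of free transcripts in such low values was not tested.

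The low level of endothelial *Ifi202b* was present in each vessel label with 20 UMIs. In Schlemm's canal cells (SC), which line the canal that drains aqueous humor, levels were 256, 187 and 6.81 CPM. In EC2 they were 463, 275 and 6.28 CPM, in EC3 89.3, 119 and 10.0 CPM, and in EC4 171, 126 and 5.50 CPM. The knockout values rest on few UMIs, with 13 in the whole class. They came from 15 cells in SC, 37 in EC2, 58 in EC3 and 87 in EC4. Over all 30 labels with enough UMIs, *Ifi202b* was below both controls in 11, above in 1 (TM1, at 6.85, 6.16 and 18.2 CPM) and within the 2-fold bounds in 18. By the same rule from 2.12% to 13.5% of genes were below both controls in a label. Among stromal labels, TM2 (56.1, 41.0 and 6.55 CPM) and TM5 (32.5, 30.0 and 10.1 CPM) were low, and TM11 was below both controls too. TM10, which held most stromal *Ifi202b*, stood at 760, 467 and 276 CPM.

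*Ifi207* split the other way. In surface epithelium it stood at 59.8 and 38.5 CPM in the controls and at 0.931 CPM in *Angpt1*ΔNC (23 UMIs, 95% interval 0.59 to 1.40 CPM), 52.8-fold below the control mean. Each of clusters 2, 3, 4 and 5 showed it, with knockout levels from 0.695 to 1.49 CPM where no control was under 10.7 CPM. Mural cells held 4.59, 10.7 and 0.597 CPM, the last from 1 UMI, and ciliary epithelium with retinal pigment epithelium held 9, 11 and 1 UMIs, with ratios of pooled controls to knockout of 13.3 (counting interval 2.33 to 532) and 5.91 (0.946 to 245). In monocytes and macrophages, the class richest in *Ifi207*, the levels were 410, 363 and 489 CPM, with the knockout the highest. Dendritic cells stood at 207, 168 and 169 CPM, and endothelium was higher in the knockout, at 14.5, 11.7 and 31.6 CPM, although within the bounds in female-typed knockout cells, with equal weight for each label or as a mean over cells. The 2 genes that were strongly lower in *Angpt1*ΔNC were therefore lower in different classes, *Ifi202b* in endothelium and myeloid cells and *Ifi207* in surface epithelium, and only mural cells had both below.

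*Ifi203* lies directly before *Ifi202b* on the chromosome and was mostly higher. Macrophages stood at 73.7, 105 and 438 CPM, mural cells at 65.1, 101 and 488 CPM, and dendritic cells at 12.9, 14.7 and 91.1 CPM, which were 4.92-, 5.86- and 6.59-fold differences. In endothelium the levels were 379, 393 and 723 CPM, a 1.88-fold difference that fell short of the 2-fold rule. Surface epithelium showed no such excess, at 274, 275 and 211 CPM. By label *Ifi203* was above both controls in 11 of 29, most in TM11 (0, 53.4 and 243 CPM), and below in TM2 (53.7, 54.5 and 22.7 CPM) and cluster 8.

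*Mndal*, whose promoter is like that of *Ifi203*, followed it in some classes and not in others. Mural cells held 42.9, 63.2 and 236 CPM and endothelium 222, 243 and 504 CPM, both above their controls, although endothelium came within the bounds with equal weight for each label, in female-typed knockout cells or as a mean over cells. In EC2 the knockout was the lowest, at 526, 495 and 311 CPM. In macrophages *Mndal* stood at 119.5, 119 and 127 CPM while *Ifi203* was 4.92-fold higher. Label TM7 gave the widest gap for *Mndal*, at 5.36 and 5.11 CPM in the controls and 115 CPM in *Angpt1*ΔNC, with counts of 21, 24 and 147. Over 34 labels in the controls, the levels of *Mndal* and *Ifi203* had a Pearson r of 0.98, and each was the gene most like the other among 7989 ranked. These labels share 2 libraries, and the value is a description.

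*Ifi204* encodes a nucleolar and nuclear DNA-binding protein induced in macrophages. It was above its controls in endothelium, at 63.8, 78.8 and 174 CPM, and in surface epithelium, at 23.97, 18.1 and 63.3 CPM. The first came within the bounds with equal weight for each label and in female-typed knockout cells, and the second with cells thinned to 2000 UMIs. Monocytes and macrophages stood at 165, 136 and 239 CPM, within the bounds. In stroma the levels were 38.5, 25.5 and 37.1 CPM. By label it was above in 6 of 21, among them all 4 epithelial labels, and below in TM2 and TM8. TM8 held 41 and 28 UMIs in the controls and 0 in *Angpt1*ΔNC, at least 3.75-fold lower against 3 UMIs.

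*Ifi211* was higher in every class with enough UMIs, by a log2 difference of 0.35 to 2.29, and past 2-fold in 4 of 7. Endothelium held 28.6, 34.2 and 153 CPM, macrophages 49.2, 62.1 and 176 CPM, and mural cells 6.89, 13.3 and 41.2 CPM. Surface epithelium, where *Ifi207* with its like promoter was 52.8-fold below its controls, held 22.7, 19.95 and 27.1 CPM of *Ifi211*.

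*Ifi205* was mostly a transcript of the stromal label TM10, which held 258 of 432 and 185 of 406 UMIs in the controls and 1649 of 2137 in *Angpt1*ΔNC. Levels in TM10 were 205 CPM and 170 CPM in the controls and 1071 CPM in *Angpt1*ΔNC (95% interval 1020 to 1124 CPM), a 5.72-fold difference. TM10 made up 6.92%, 5.02% and 9.66% of stromal cells, and the stromal total of *Ifi205* (14.3, 8.31 and 106 CPM) moved by 9.36-fold with both. Macrophages stood at 10.1, 19.6 and 49.9 CPM and surface epithelium at 4.35, 4.40 and 11.4 CPM. The part of reads exchanged with *Ifi211* or *Mndal*, which hold 59.4% of its 3′ stretches, was not tested.

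*Ifi213* was close to silent in the controls, with 0 and 2 UMIs in all kept cells against 80 in *Angpt1*ΔNC. Of these 80, 34 were in endothelium, 27 of them in EC4, and 40 in macrophages. Macrophages of the controls had 0 UMIs, so that the knockout level of 13.1 CPM was at least 17.96-fold higher against 3 UMIs in each control. In endothelium the ratio to the pooled controls was 52.2, with a counting interval of 13.4 to 448. *Ifi206* and *Ifi208*, whose promoters are near copies of that of *Ifi213*, were each higher in 1 of these classes. *Ifi208* stood at 1.56, 2.60 and 26.7 CPM in endothelium but had 9, 4 and 4 UMIs in macrophages. *Ifi206* had 0, 1 and 34 UMIs in macrophages and 0, 0 and 13 in endothelium, which is under 20. *Ifi209* was above both controls in all 4 classes with 20 UMIs, as in macrophages (2.53, 4.13 and 13.1 CPM) and epithelium (3.89, 2.34 and 9.15 CPM). In macrophages, dendritic cells and T cells these calls did not hold with cells thinned to 2000 UMIs or with male-typed cells alone. In dendritic cells they also did not hold with female-typed knockout cells. In epithelium they did not hold with equal weight for each label or as a mean over cells. A call also ended where fewer than 20 UMIs were left. Female-typed knockout dendritic cells held 13 UMIs at 32.1 CPM, beside 6.46 and 3.16 CPM in the controls. Male-typed knockout T cells held 4 UMIs at 49.8 CPM. *Aim2* itself stood at 0.883, 1.03 and 0.857 CPM in all kept cells.

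**Figure D2:**
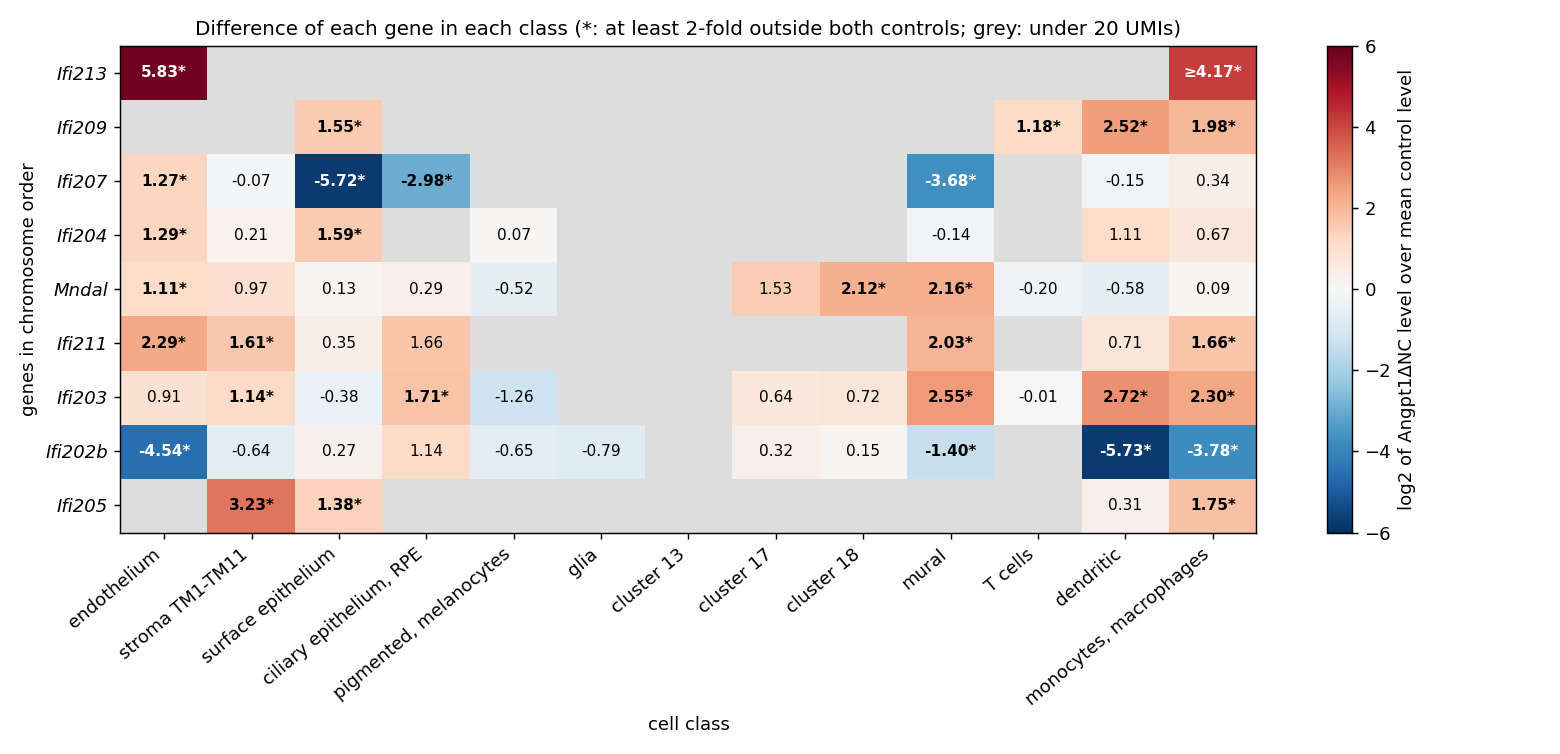
Log2 of the *Angpt1*ΔNC level over the mean control level, for genes in chromosome order (rows) and cell classes (columns), with asterisks where the knockout was at least 2-fold outside both controls and grey where the 3 libraries held under 20 UMIs. The row of *Ifi202b* is blue in endothelium (-4.54), dendritic cells (-5.73) and macrophages (-3.78), and that of *Ifi207* in surface epithelium (-5.72).

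Read by class, the members that passed the rule were as follows, beside the share of all genes with 20 UMIs that lay at least 2-fold outside both controls. In endothelium 5 genes were above and 1 below of 7, where the share of all genes was 8.98%. In monocytes and macrophages 5 were above and 1 below of 9, where it was 5.89%. Mural cells had 3 above and 2 below of 6 (16.1% of all genes), surface epithelium 3 above and 1 below of 8 (8.01%), and stroma TM1 to TM11 3 above of 7 (7.28%). Dendritic cells had 2 above and 1 below of 8 (7.4%), ciliary epithelium with retinal pigment epithelium 1 above and 1 below of 5 (15.5%), cluster 18 1 above of 3 (5.44%) and T cells 1 above of 3 (8.19%). Since the genes were selected on this contrast, nothing is read from these counts. The ciliary and pigment epithelium class also differed in makeup, with 29.6%, 43.1% and 10.9% of its cells in retinal pigment epithelium. Pigmented cells, glia, cluster 13 and cluster 17 had no gene outside the bounds, and in cluster 13 no gene reached 20 UMIs.

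The opposite changes of neighbours did not hold in every cell class. Among 8 adjacent pairs of the 9 genes, 45 pairs of neighbours within a class had 20 UMIs for both, 19 of these differed in sign and 6 had one gene above and the other below. The 6 were in 4 classes of the 10 with any such pair. The share among other adjacent genes was not computed, so no excess is read from these counts. Among the 6 were *Ifi209* (above) and *Ifi207* (below) in surface epithelium, and *Ifi205* (above) and *Ifi202b* (below) in macrophages. The call of *Ifi209* in surface epithelium did not hold with equal weight for each label or as a mean over cells. The mural pair did not hold with TMM factors or equal weight for each label, since *Ifi202b* came within the bounds, and the calls of *Ifi203* in dendritic cells and *Ifi204* in surface epithelium did not hold with cells thinned to 2000 UMIs. *Ifi203* and *Ifi202b* were on opposite sides in mural cells, dendritic cells and macrophages. By label they were on opposite sides in 6 of 27 (EC4, TM5, TM11 and clusters 20, 23 and 24) and differed in sign in 18. In endothelium they differed in sign, with log2 differences of 0.91 and -4.54, and in surface epithelium the signs were the reverse and small, at -0.38 and 0.27, of which the latter became -0.03 without control 1. The UMIs of *Ifi203* per UMI of *Ifi202b* in macrophages were 0.273, 0.401 and 22.6 in the 3 libraries, and in surface epithelium 0.165, 0.105 and 0.0822. *Ifi207* and *Ifi204* were on opposite sides in surface epithelium only, where the UMIs of *Ifi207* per UMI of *Ifi204* were 2.49, 2.12 and 0.0147. In macrophages that ratio was 2.48, 2.67 and 2.04, and in endothelium 0.227, 0.149 and 0.182. All 4 epithelial labels had *Ifi207* below and *Ifi204* above, and none of the other 9 labels with both genes had them on opposite sides. By sign alone dendritic cluster 23 differed too, with log2 differences of -0.15 for *Ifi207* and 1.11 for *Ifi204*.

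**Figure D3:**
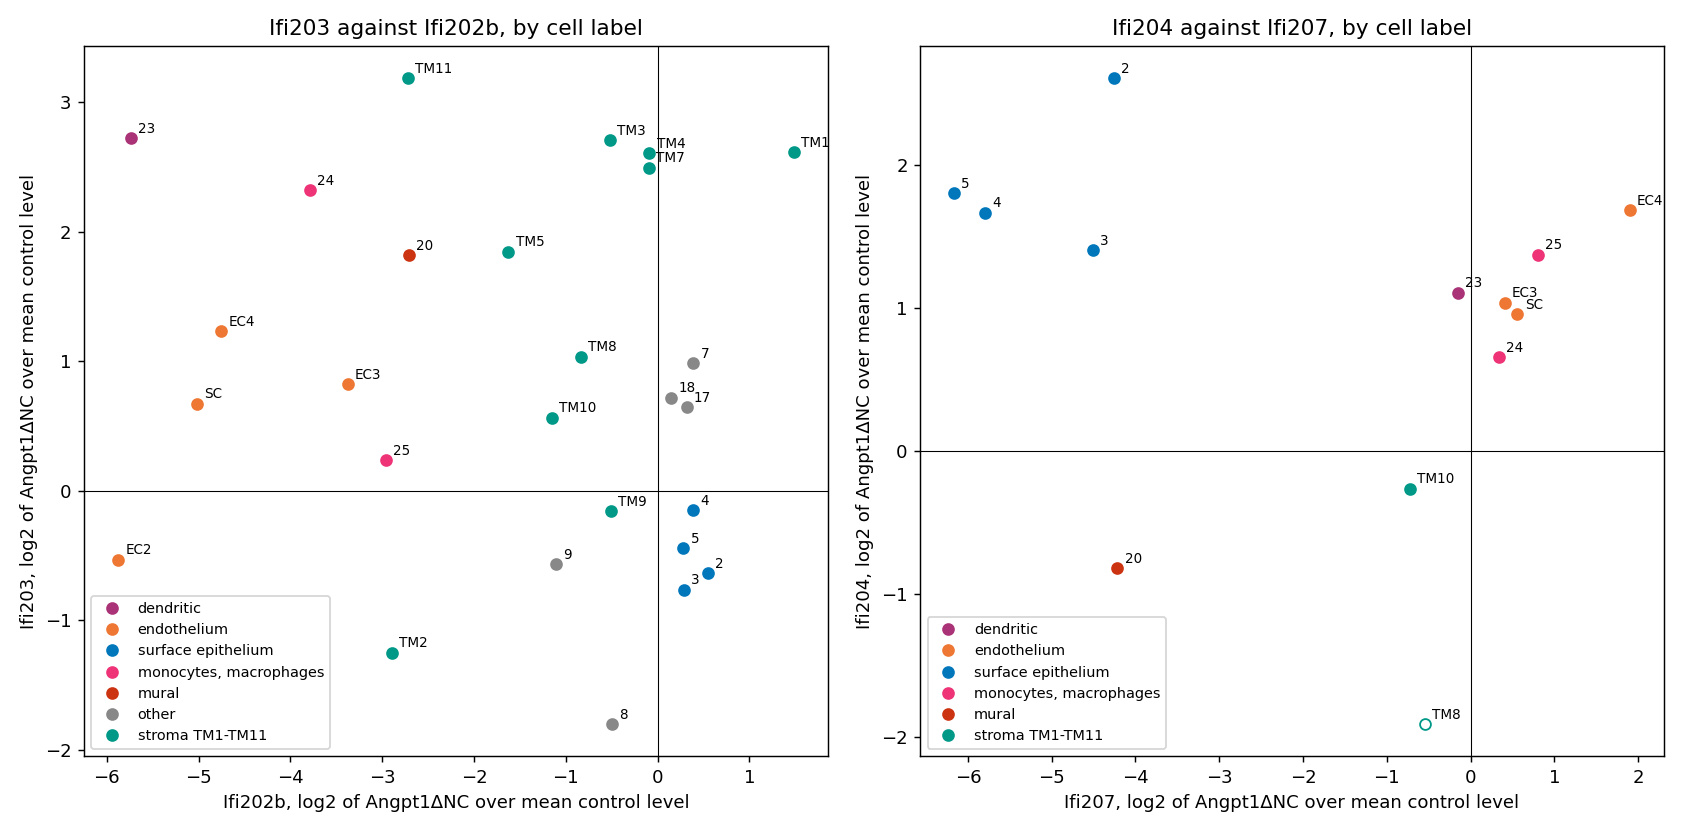
Log2 of the *Angpt1*ΔNC level over the mean control level of *Ifi203* against *Ifi202b* (left) and *Ifi204* against *Ifi207* (right), with a point for each cell label with 20 UMIs of both genes and colours for classes, and with an open symbol where the knockout had 0 UMIs and is drawn as 3. On the left most endothelial and myeloid labels lie at the upper left and the epithelial labels 2 to 5 at the lower right, and on the right the 4 epithelial labels lie far to the left, with *Ifi207* between -6.16 and -4.26.

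Whether the knockout-to-control difference varied among the classes was tested across 15258 genes with edgeR's quasi-likelihood F-test of all class-by-genotype terms, with library and class in the model, so that a gene's mean difference between libraries was removed. The spread in this test comes from how the 2 controls differed between classes, and it compares these libraries and not genotypes. The genes had been chosen with class values in view, so the test is no independent evidence for them. Of the 9 genes, 6 passed at an adjusted p under 0.05, where 13.4% of all genes did. The edgeR adjusted p was 4.37e-07 for *Ifi207*, 9.43e-06 for *Ifi202b*, 9.6e-05 for *Ifi203*, 0.000149 for *Mndal*, 0.0105 for *Ifi211* and 0.0478 for *Ifi204*. It was 0.0849 for *Ifi205*, 0.76 for *Ifi209* and 1 for *Ifi213*. With DESeq2 the adjusted p was 0.14 for *Ifi211* and 0.153 for *Ifi204*, and in male-typed cells alone edgeR gave 0.328 for *Ifi204* and 0.0379 for *Ifi205*. Within classes, edgeR with 1 residual degree of freedom called 12.9% of genes in endothelium, 8.97% in stroma, 0.139% in surface epithelium and 5.39% in monocytes and macrophages at an adjusted p under 0.05, as a background of how the libraries differed.

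The knockout pool held cells of both sexes, hence of at least 2 mice, and the low levels of *Ifi202b* and *Ifi207* were present in both. Of the pairs outside both controls that could be computed, 23 of 29 kept their side in female-typed knockout cells and 23 of 27 in male-typed cells alone. For female-typed cells, those that did not were *Ifi203* and *Ifi211* in stroma, *Ifi204*, *Ifi207* and *Mndal* in endothelium and *Ifi209* in dendritic cells. For male-typed cells they were *Ifi209* in 3 classes and *Ifi213* in endothelium. A pair left with under 20 UMIs was counted as not keeping its side. *Ifi213* of endothelium stood at 24.4 CPM in male-typed knockout cells (16 UMIs) and 16.8 CPM in female-typed ones. Its controls held 0 and 0.651 CPM. In endothelium *Ifi202b* stood at 7.61 CPM in male-typed and 7.47 CPM in female-typed *Angpt1*ΔNC cells, and in macrophages at 21.1 and 16.9 CPM. *Ifi207* of surface epithelium stood at 1.44 CPM in male-typed and 0.646 CPM in female-typed cells. *Ifi203* of macrophages stood at 510 and 432 CPM, and *Ifi211* of endothelium at 192 and 137 CPM. Stroma was less even, with *Ifi205* at 232 CPM in male-typed and 34.5 CPM in female-typed cells, *Ifi204* at 78.7 and 12.6 CPM and *Ifi202b* at 75.8 and 13.4 CPM, and label TM10 was not separated here.

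**Figure D4:**
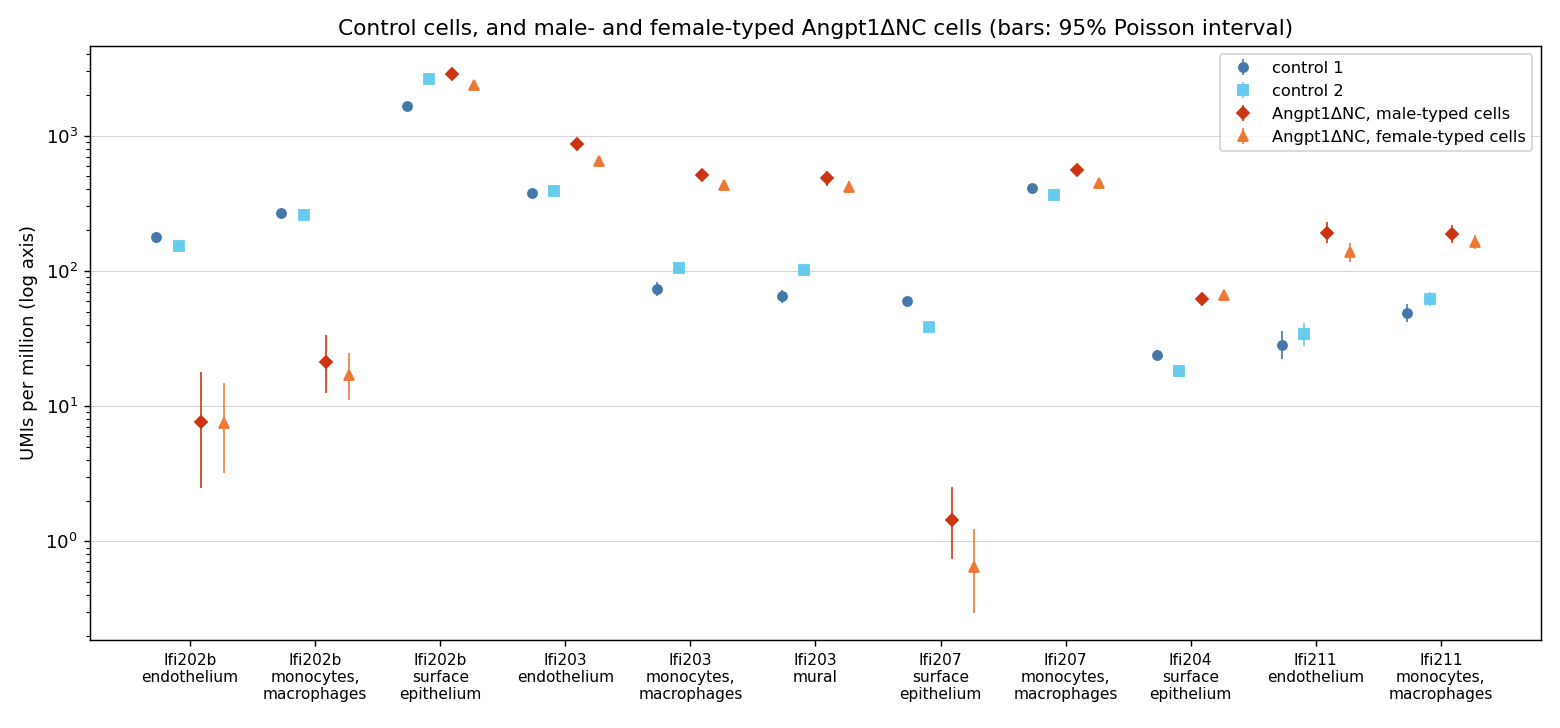
Levels (UMIs per 1000000, log axis, 95% Poisson bars) in both controls and in male-typed and female-typed *Angpt1*ΔNC cells, for 11 gene and class pairs. Male-typed and female-typed knockout cells lie on the same side of the controls for *Ifi202b* in endothelium (7.61 and 7.47) and for *Ifi207* in surface epithelium (1.44 and 0.646).

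Other interferon-inducible genes are given beside the cluster. In a list of 30, among them *Ifit1*, *Ifit3* and *Rsad2*, none of 29 with 20 UMIs was above both controls in macrophages and 1 was below, with a median log2 difference of 0.23 beside -0.06 for all genes. In surface epithelium all 30 were within the bounds. Endothelium had 7 of 29 above and none below, with a median of 0.52 beside -0.19 for all genes. There *Ifit3* stood at 164, 172 and 751 CPM, *Rsad2* at 371, 235 and 1094 CPM and *Ifit1* at 287, 252 and 909 CPM. Ciliary epithelium with retinal pigment epithelium had 9 of 29 above and none below, with a median of 1.03 beside 0.08 for all genes. Pigmented cells had 5 above and 2 below of 30, and cluster 13 had 5 above and 2 below of 17. By label, 9 of 29 were above in EC4, 6 of 27 in EC3 and 4 of 27 in EC2, while in SC 8 of 28 were below. Over all genes SC had the highest share below both controls of any label, 13.5%, and the share above ranged from 1.51% to 13.6% over the 35 labels with a median of 2.61%. The share of endothelial cells in EC4 was 32.5%, 32.7% and 41.6%, and in SC 15.6%, 19.3% and 7.18%. The summed level of 6 monocyte and macrophage markers in EC4 was 14.5, 12.4 and 71.5 CPM, against 11788, 13086 and 11073 CPM in cluster 24, that of 5 stromal markers in EC4 was 60.9, 117 and 283 CPM, and their part in the EC4 values was not tested. In a list of 14 genes of DNA sensing and its signalling, none of 13 in macrophages and 1 of 10 in endothelium lay outside the bounds, the latter being *Casp1* (5.48, 8.14 and 2.73 CPM).

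Genes that flank the cluster were taken as the 5 nearest on each side with 20 UMIs. Over all kept cells 9 were within the bounds and 1 was below. *Slamf8*, 760 kb before the cluster and expressed by macrophages, stood at 196, 249 and 82.1 CPM there.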

How the data were processed

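Single cell suspensions of 2 control pools and 1 *Angpt1*ΔNC pool were sequenced on the 10x Genomics platform. The authors deposited raw UMI count matrices and a table of their cell clusters. The submitters' processing notes name Cell Ranger 2.1.1 and Seurat 3.1.3, whereas the matrix header names Cell Ranger 3.0.2, and the genome was mm10. Kept cells are those with a cluster label, with at least 1001 UMIs each. Doublets were not called again. UMIs of the 35 labels were summed per library and joined into 13 classes (Python 3.11.15, numpy 2.4.6, scipy 1.17.1). Libraries are the replicates and mice were pooled, so p-values rest on the spread between the 2 control pools. In the interaction model that spread is how these 2 pools differed between classes. The members and lists were chosen with earlier results of these data known, and the genes named beyond the 9 were other genes of the locus, the 5 nearest expressed genes on each side, the 3 genes most like each member, and listed genes outside the bounds. Counts were tested with edgeR 4.0.16 (TMM factors, filterByExpr, quasi-likelihood F-test, Benjamini-Hochberg adjustment) in R 4.3.3, and alternatively with DESeq2 1.42.0. The interaction model had 39 sums, 12 tested terms and 12 residual degrees of freedom. The scripts were tested on simulated data. A lower bound of fold uses 3 UMIs per library where a group had 0. Ratios with counting intervals are of pooled UMIs. Alternatives were other scaling, thinning each cell to 2000 UMIs, equal weight per label, other fold bounds, cells of typed sex, and leaving out each control. Promoters came from RefSeq GRCm38.p6 and gene models from GENCODE M21. *Ifi203-ps*, *Pydc3* and *Pydc4* were not analysed here.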

Additional observations from a re-analysis of the deposited data

Results flagged for a closer look

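For 6 of the 9 genes the knockout-to-control difference varied among the 13 cell classes by edgeR's quasi-likelihood test of the class-by-genotype terms (Benjamini-Hochberg adjusted p over 15258 genes, of which 13.4% passed). The adjusted p was 4.37e-07 for *Ifi207*, whose log2 difference ran from -5.72 in surface epithelium to 1.27 in endothelium. It was 9.43e-06 for *Ifi202b*, from -5.73 in dendritic cells to 1.14 in ciliary epithelium with retinal pigment epithelium. It was 9.6e-05 for *Ifi203*, from -1.26 in pigmented cells to 2.72 in dendritic cells, and 0.000149 for *Mndal*, from -0.58 in dendritic cells to 2.16 in mural cells. It was 0.0105 for *Ifi211*, from 0.35 in surface epithelium to 2.29 in endothelium, and 0.0478 for *Ifi204*, from -0.14 in mural cells to 1.59 in surface epithelium. With DESeq2 the adjusted p was 0.14 for *Ifi211* and 0.153 for *Ifi204*, and in male-typed cells alone edgeR gave 0.328 for *Ifi204*. The test compares 1 knockout pool with 2 control pools, and these genes were chosen with such differences in view.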

How the results depend on the processing

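Of the 31 gene and class pairs outside both controls, 30 had a finite ratio, and none that could be computed changed sign under 8 other ways of weighting, scaling or choosing cells and libraries. *Ifi202b* in endothelium, dendritic cells and macrophages and *Ifi207* in surface epithelium stayed below both controls in each of these that gave a value, which thinning did not for *Ifi207* in surface epithelium, nor male-typed cells or equal weight for *Ifi202b* in dendritic cells. Thinning cells to 2000 UMIs kept 19 of 27 pairs outside the bounds, and equal weight for each label 18 of 25. The count of pairs above both controls was 24, and 14 with equal weight for each label and 12 with a 3-fold bound. Without either control it was 28 to 29, and the count below was 8 instead of 7. Genes called by edgeR numbered 1250 in endothelium and 238 with DESeq2. In stroma they numbered 1251, and 2441 with no low count filter, 617 with DESeq2 and 432 with equal numbers of cells. In surface epithelium they numbered 18, and 2005, 477 and 217 under the same settings and 91 in male-typed cells alone. In monocytes and macrophages they numbered 514, and 70 with DESeq2 and 253 in male-typed cells alone. Genes whose difference varied among classes numbered 2048, and 3600 with no low count filter and 3118 with DESeq2. The cause of these shifts was not tested. No paired analysis was possible because nothing in the sample labels pairs a control pool with the knockout pool. Counts of genes without a control were not run, since 1 library against 1 leaves no residual degree of freedom. Genes with few UMIs, such as *Ifi209* and *Ifi213*, are limited by depth.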

Other observations

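In the controls, levels over 34 labels were most alike between *Mndal* and *Ifi203* (Pearson r of 0.98) and between *Ifi204* and *Ifi211* (0.96). The first gene outside the locus was *Ptgs1* for *Ifi202b* (0.80) and *Il1a* for *Ifi207* (0.77). These are descriptions over labels that share 2 libraries. *Ifi205*, *Ifi209* and *Ifi213* were under 10 CPM on average and were not ranked.

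In mural cluster 21, 10 of 21 interferon-inducible genes with 20 UMIs were above both controls and 1 was below, and in cluster 20 it was 1 above and 1 below of 28. Cluster 20 made up 44.5%, 43.2% and 64.3% of mural cells in control 1, control 2 and *Angpt1*ΔNC.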
